A study of Mus musculus with 15 samples.

Results

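Nodal, Lefty1, Lefty2, Tdgf1 and Fgf4 encode secreted signals and a co-receptor that pluripotent mouse cells exchange with one another. The 5 genes were followed by their symbols, with 1 row each among the 28373 transcripts (22035 genes) of the gene table and 7 of the 74866 start-site windows. Of 98085 random 2 kb bins, 8 lay within 20 kb of a member. The cells were TT2, wild-type male mouse embryonic stem (ES) cells of C57BL/6 x CBA background, labelled as inner cell mass of the blastocyst; no library came from treated or mutant cells. Chromatin was immunoprecipitated without crosslinking from sorted cells. H3K9me3, a mark of heterochromatin, was profiled at 1000 (libraries a, b and c), 10000, 100000 and 1000000 cells. H3K27me3, which Polycomb repressive complex 2 deposits, was profiled at 1000, 10000 and 100000 cells, and H3K4me3, a mark of active promoters, at 5000, 10000 and 100000 cells. The libraries they were set against used an antibody to histone H3 whatever its modification (panH3), at 1000 cells (a and b). RNA depleted of ribosomal RNA was sequenced from 1000 cells, which makes 15 libraries in all. The series compared these cell numbers to learn how far low-input profiles hold the pattern of larger ones. Whether libraries a, b and c were grown apart is not stated in the labels; p-values therefore cover the spread among these libraries, which may be technical.

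Nodal is a ligand of the TGF-beta family. It signals through activin receptors and Smad2/Smad3 and needs a co-receptor of the EGF-CFC family, of which Tdgf1 (Cripto) is a member. Lefty1 and Lefty2 are secreted antagonists of Nodal and are themselves induced by Nodal signalling, which makes a negative feedback loop. Fgf4 is the main fibroblast growth factor made by mouse ES cells; it activates the Ras-Erk cascade and primes the cells to leave the naive state. In ES cells, many developmental regulators carry H3K27me3 and H3K4me3 at the same start site, a state called bivalent.

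The 3 members found in the RefSeq promoter table (GRCm38.p6) differed in base composition, and their sequences are shown because both H3K4me3 and H3K27me3 were measured over these start sites. Each line holds the 250 bases before the annotated start, 5′ to 3′ on the gene's strand, with every CpG dinucleotide in capitals. These coordinates belong to GRCm38.p6, whereas all coordinates of the deposited tables below belong to mm9.
Nodal, chr10:61417722-61417971, plus strand: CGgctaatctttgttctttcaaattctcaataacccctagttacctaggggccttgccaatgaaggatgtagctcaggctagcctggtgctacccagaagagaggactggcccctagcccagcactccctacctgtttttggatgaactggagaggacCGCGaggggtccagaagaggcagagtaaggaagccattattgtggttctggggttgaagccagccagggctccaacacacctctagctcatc
Tdgf1, chr9:110946159-110946408, minus strand: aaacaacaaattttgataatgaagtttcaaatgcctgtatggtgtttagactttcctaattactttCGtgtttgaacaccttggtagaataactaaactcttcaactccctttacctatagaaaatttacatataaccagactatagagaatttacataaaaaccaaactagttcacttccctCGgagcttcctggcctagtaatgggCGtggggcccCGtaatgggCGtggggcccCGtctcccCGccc
Fgf4, chr7:144861136-144861385, plus strand: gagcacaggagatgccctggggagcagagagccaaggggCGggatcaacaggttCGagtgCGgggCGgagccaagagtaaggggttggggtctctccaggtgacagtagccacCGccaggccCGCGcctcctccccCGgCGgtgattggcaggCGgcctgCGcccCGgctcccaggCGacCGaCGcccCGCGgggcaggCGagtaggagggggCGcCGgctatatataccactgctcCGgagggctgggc

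The Fgf4 promoter held 21 CpGs and 71.2% G and C, the Tdgf1 promoter 7 CpGs and 42% G and C, and the Nodal promoter 3 CpGs and 53.2% G and C. Over all 32851 promoters of the table the medians were 6 CpGs and 52.4% G and C, so Fgf4 stood at the 83.7th percentile for CpGs and Nodal at the 29.0th. The ratio of observed to expected CpGs was 0.675 for Fgf4, 0.648 for Tdgf1 and 0.170 for Nodal. Motifs were searched on both strands. A GC box (GGGCGG) was found 2 times in Fgf4, at bases -214 to -209 and -188 to -183 from the start, and 1 time in Tdgf1, at -6 to -1; 32.7% of all promoters held it. The letters TATATA occurred in Fgf4 as a pair of overlapping matches between bases -30 and -23, and 5.25% of all promoters held them. Upstream of Tdgf1, a unit of 19 bases stood 2 times in a row between bases -50 and -13. Each copy held GGGNGTGG, the letters of a Klf-type site, which 15.9% of all promoters held. CCAAT was present 1 time in Nodal and 1 time in Fgf4 (33.9% of all promoters). No match to TATAAA (12.4% of all promoters), to AATNCACA, the FoxH1-type letters (3.18%), or to GTCTAGAC, the Smad-type letters (0.167%), was found in these 3 windows.

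All values are RPKM, read density per unit of length and of depth, so the genes can be compared per length. In the ChIP tables RPKM moves in steps of 1 read, which gave depths of 13.03 to 45.5 M (M = 1000000) reads for libraries of the bin table and of 1.86, 1.07 and 16.6 M reads for H3K4me3 at 5000, 10000 and 100000 cells. The median start-site window therefore rested on 2, 2 and 18 reads, and the median bin on 9 to 35. Counting intervals below are exact Poisson 95% intervals and cover counting error only. In the RNA, the 8 listed pluripotency markers, of which Tdgf1 is 1, stood at 53.6 to 221.81 RPKM. Of 8 fibroblast markers 1 reached 1 RPKM (Thy1, 1.79) and 4 were listed at 0; the summed level of the list was 1.99 RPKM. Of 6 primitive endoderm markers 2 reached 1 RPKM (Sparc at 33.72 and Dab2 at 1.11), and none of the 4 trophoblast markers measured did. Of 4 primed epiblast markers 3 did, led by Dnmt3b at 19.96, with Fgf5 listed at 0. The part of such cells in the levels below was not tested.

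RNA of the members spanned a wide range. Tdgf1, the co-receptor, had 80.43 RPKM, at the 99.3rd percentile of all genes and beside Pou5f1 (81.38) and Sox2 (75.98), the core pluripotency factors. Fgf4 had 21.06 RPKM (92.8th percentile) and Nodal, the other ligand, had 7.14 RPKM (76.4th percentile). The antagonists were lower, with 5.35 RPKM for Lefty2 (71.5th percentile) and 1.43 RPKM for Lefty1 (53.4th percentile). The order from high to low was thus Tdgf1, Fgf4, Nodal, Lefty2 and Lefty1. With 1 RNA library, whether neighbours in that order differ beyond the spread between libraries could not be tested. All 5 members reached 1 RPKM, against 50.2% of all genes. Ranked only among genes with RNA above 0, Lefty1 stood at the 41.0th percentile, Lefty2 at the 64.0th and Nodal at the 70.1st. Fgf4 and Tdgf1 stood at the 91.0th and 99.1st percentiles on that ranking. In bulk RNA, fewer cells expressing a gene and less RNA per cell cannot be told apart. The RefSeq table lists 2 pseudogenes of Tdgf1, and Lefty1 and Lefty2 are close copies of each other. How reads that fit several places were treated is not given in the sources used here, so the split between such copies is uncertain.

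H3K27me3, counted within 1 kb of the start site, divided the members into a high set of the antagonists and Fgf4 and a low set of Nodal and Tdgf1. Lefty1 (NM_010094, chr1:182865168-182868528, plus strand, mm9) had 1.52 RPKM at 1000 cells, 1.5 at 10000 and 1.45 at 100000. These levels placed it at the 98.5th, 94.2nd and 94.9th percentiles of all genes. Lefty2 (NM_177099, chr1:182823248-182829232, plus strand) had 0.86, 1.27 and 1.26 RPKM at the same cell numbers, at the 92.2nd to 93.6th percentiles. Both antagonists were thus far above the all-gene medians of 0.31, 0.28 and 0.28 RPKM. Fgf4 (NM_010202, chr7:152047296-152051152, plus strand) had 0.54, 1.11 and 1.17 RPKM, at the 77.3rd, 90.6th and 92.6th percentiles. It joined the antagonists at 10000 and 100000 cells. At 1000 cells its level was lower, with an approximate counting interval of 0.29 to 0.90 RPKM. That interval lay below the one of Lefty1 (1.10 to 2.09 RPKM). It overlapped those of Lefty2 (0.53 to 1.28 RPKM) and of Nodal in the low set (0.11 to 0.55 RPKM). The place of Fgf4 between these genes at 1000 cells was therefore not settled.

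Nodal (NM_013611, chr10:60880720-60888084, plus strand) had 0.27, 0.24 and 0.37 RPKM of H3K27me3 at 1000, 10000 and 100000 cells, close to the medians of all genes. Tdgf1 (NM_011562, chr9:110842112-110848664, minus strand) had 0.14, 0.20 and 0.05 RPKM, at the 15.9th, 38.6th and 5.34th percentiles. At the depths of these libraries such levels stand for about 2 to 6 reads for Tdgf1 and about 7 to 15 for Nodal, so changes with cell number in these 2 genes were not detectable. At 100000 cells, 3 of the 5 members reached 1 RPKM of H3K27me3, beside 9.55% of all genes. Among genes with RNA of at least 1 RPKM the share was 3.8%, and the same 3 members passed both limits.

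**Figure D1:**
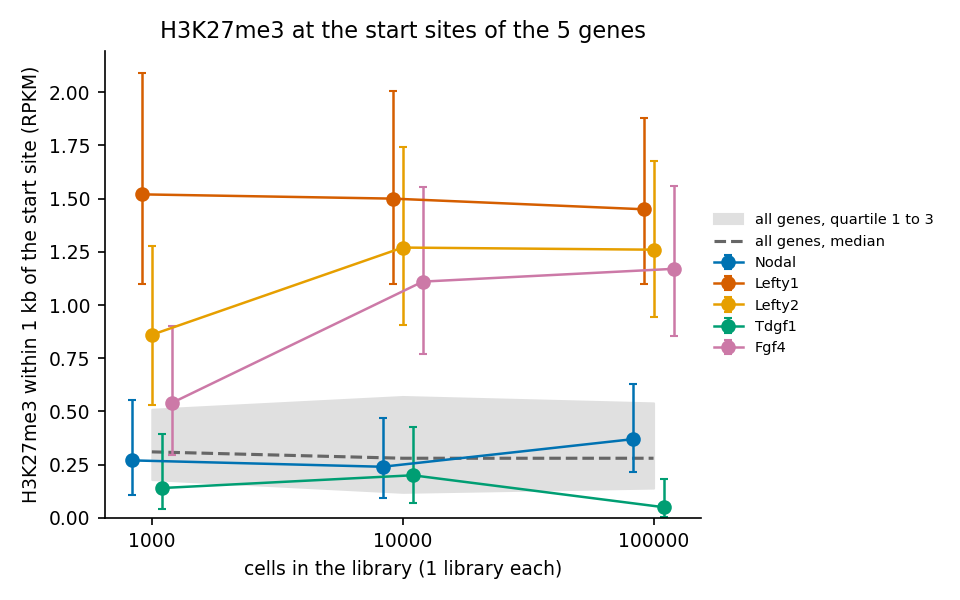
H3K27me3 (RPKM, vertical axis) within 1 kb of the start site of each gene in the libraries of 1000, 10000 and 100000 cells (horizontal axis), with approximate Poisson 95% intervals, the median of all genes (dashed) and their quartiles (grey). Lefty1 stays near 1.5 RPKM, Fgf4 stands at 0.54 at 1000 cells and at 1.17 at 100000 cells, and Nodal and Tdgf1 lie within or below the grey band.

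The H3K27me3 levels at 1000 and 100000 cells were set side by side for each member. The approximate counting intervals at these cell numbers overlapped in every member, so no difference among members in this change was established. Fgf4 at 1000 cells had 0.46 times its level at 100000 cells, a log2 difference of -0.99 after adding 0.1 RPKM. Its levels stand for about 14 and 46 reads, with approximate intervals of 0.29 to 0.90 RPKM at 1000 cells and 0.86 to 1.56 RPKM at 100000 cells, which meet at their ends. The log2 difference was -0.50 for Lefty2 and -0.35 for Nodal, both smaller than for Fgf4, and 0.68 for Tdgf1 on its few reads. With 1 RPKM added in place of 0.1, the differences of Fgf4 and Tdgf1 were -0.49 and 0.12. Lefty1 had nearly the same level at 1000 and 100000 cells, with a log2 difference of 0.06 that became -0.07 when each library was divided by its median over all genes. Of the 1856 genes that averaged 1 RPKM or more, which include Lefty1 and Lefty2, 92% were lower at 1000 cells than at 100000 cells. By its values Lefty2 followed that majority and Lefty1 did not as deposited. The approximate intervals at 1000 and 100000 cells overlapped for Lefty2 (0.53 to 1.28 and 0.94 to 1.68 RPKM). Those of Lefty1 overlapped as well (1.10 to 2.09 and 1.10 to 1.88 RPKM), so the direction was not settled for either gene. With 1 library at each cell number, none of these differences has a replicate check.

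The 2 antagonist genes lie 35.9 kb apart on chromosome 1. Its bins averaged 1.30 to 1.46 times the mean of all autosomal bins in each of the 11 libraries of the bin table. The ratio was 0.833 to 0.900 for chromosome 7, which carries Fgf4, 0.914 to 0.952 for chromosome 9, which carries Tdgf1, and 0.893 to 0.957 for chromosome 10, which carries Nodal. After division by the ratio of the chromosome in the same library, Lefty1 had 1.13, 1.15 and 1.10 RPKM of H3K27me3, Lefty2 had 0.641, 0.975 and 0.954, and Fgf4 had 0.604, 1.23 and 1.32. The 3 genes stayed above the other members on this scale. Fgf4 then stood above Lefty1 at 10000 and 100000 cells, and Lefty2 was just below 1 RPKM at 100000 cells. These values rest on about 34 to 57 reads each, and the order of the genes on this scale was not tested.

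H3K4me3, counted in 1 kb windows, was highest at the start site of Fgf4 in all 3 libraries. The Fgf4 window (chr7:152046791-152047791) had 30.7 RPKM from 57 reads at 5000 cells, 52.5 RPKM from 56 reads at 10000 cells and 7.77 RPKM from 129 reads at 100000 cells. These are the 97.3rd, 94.4th and 92.8th percentiles of all windows kept in the table. The intervals of the Fgf4 window, 23.3 to 39.8, 39.7 to 68.2 and 6.49 to 9.23 RPKM, did not meet those of any other member window in the same library. RPKM itself cannot be set side by side across these libraries: the upper quartile of all windows was 8.62, 18.75 and 3.85 RPKM at 5000, 10000 and 100000 cells, so percentiles are used. No window in the table exceeds 50 RPKM (100 at 10000 cells). Stronger windows seem to have been dropped, and percentiles are among those kept.

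The Tdgf1 window (chr9:110848162-110849162) had 11.31, 21.56 and 2.71 RPKM from 21, 23 and 45 reads at 5000, 10000 and 100000 cells. Its percentiles were 79.3, 76.8 and 66.5, so the member with the most RNA was not the member with the most H3K4me3. The Nodal window (chr10:60880220-60881220) had 4.31, 12.19 and 3.37 RPKM from 8, 13 and 56 reads, at the 63.1st, 67.3rd and 71.5th percentiles. At 100000 cells its interval of 2.55 to 4.38 RPKM overlapped that of Tdgf1, 1.98 to 3.63 RPKM, so Nodal and Tdgf1 could not be placed in order there.

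Each Lefty gene has a window at its start and a second one inside the transcribed region. For Lefty2 the inner window, centred 1.34 kb after the start (chr1:182824089-182825089), had 13.46, 15 and 3.67 RPKM from 25, 16 and 61 reads at 5000, 10000 and 100000 cells. The window at the start of Lefty2 (chr1:182822739-182823739) had 2.69, 1.88 and 1.26 RPKM from 5, 2 and 21 reads. The inner window of Lefty2 was therefore higher 5-fold, 7.98-fold and 2.91-fold, and its intervals did not meet those of the start window in any of the 3 libraries. For Lefty1 the inner window, centred 1.83 kb after the start (chr1:182866502-182867502), had 3.23, 11.25 and 2.41 RPKM from 6, 12 and 40 reads. Its window at the start (chr1:182864653-182865653) had 3.23, 3.75 and 2.29 RPKM from 6, 4 and 38 reads. The 2 windows of Lefty1 were equal at 5000 cells and had overlapping intervals at 10000 and 100000 cells. The inner window of Lefty2 stood at the 82.6th, 70.4th and 73.5th percentiles, and its start window at the 57.4th, 48.0th and 52.9th. At 100000 cells, Fgf4 alone among the 5 members reached 5 RPKM of H3K4me3 in any window, while 21.4% of all genes did.

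**Figure D2:**
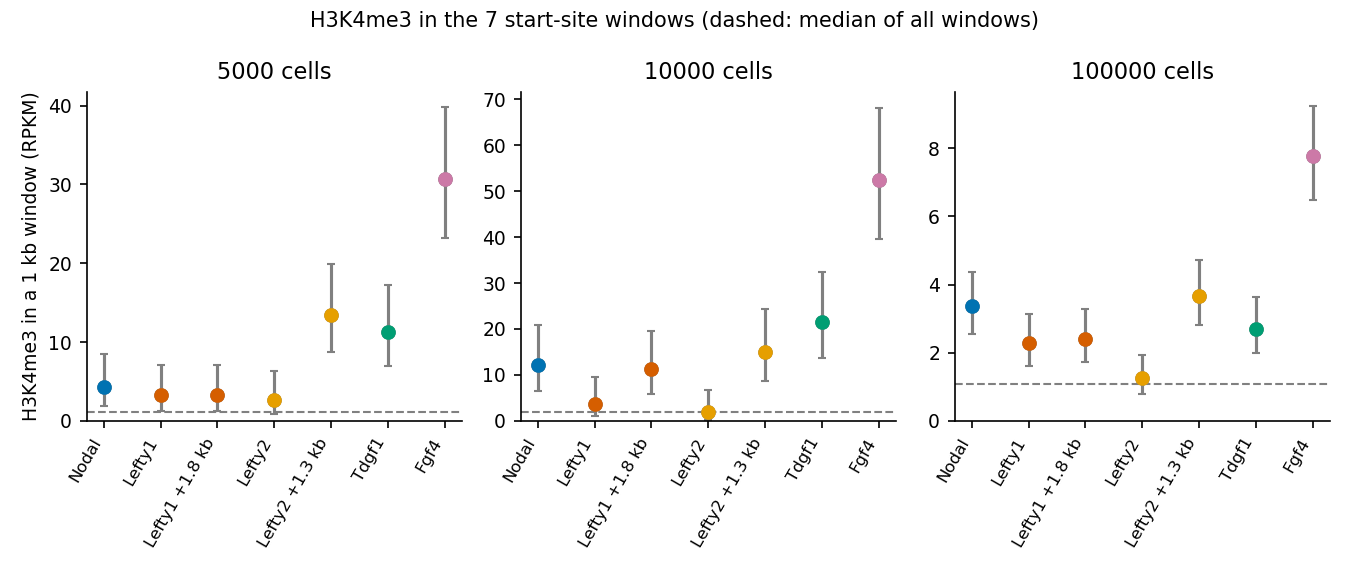
H3K4me3 (RPKM, vertical axis, a scale of its own in each panel) in the 7 windows of the 5 genes (horizontal axis) in the libraries of 5000, 10000 and 100000 cells, with exact Poisson 95% intervals; windows inside the Lefty genes are marked by their distance from the start and the dashed line is the median of all windows. Fgf4 is highest in each panel, and the inner window of Lefty2 stands above the window at its start.

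The combination of marks and RNA differed among the members. Fgf4 and Lefty2 carried H3K27me3 of at least 1 RPKM at 100000 cells beside RNA of 21.06 and 5.35 RPKM, and Fgf4 did so with the highest H3K4me3 of the 5 genes. Tdgf1 had the highest RNA of the 5 and H3K27me3 between the 5.34th and 38.6th percentiles. Over the 7 libraries of H3K27me3, H3K4me3 and RNA, likeness was measured as the Euclidean distance between percentile ranks among 20317 genes found in both tables. For H3K4me3 each gene entered by its window with the highest mean. For Lefty1 and Lefty2 this was the inner window, whereas their H3K27me3 was that of the start site. Lefty1 and Lefty2 were the closest pair of members, at 37.0 percentile points, and Lefty1 and Tdgf1 the farthest, at 144. Many other genes were nearer: Lefty2 ranked only 1195th in nearness to Lefty1, and Lefty1 ranked 522nd in nearness to Lefty2. The chromosome and similar sequence that Lefty1 and Lefty2 share enter this distance. The genes nearest to Fgf4 were Galnt2 (12.7 points), A730017L22Rik (15.3) and Wdr20a (16.3). Nearest to Nodal were Pkig (8.13), Lman2l (11.6) and Rps6ka5 (11.7). Bex4 (12 points), Spint2 (13.3) and 2210009G21Rik (15.2) were nearest to Tdgf1. For Lefty1 they were Cbr3 (7.88), Itgb3 (7.98) and Mmp28 (8.10), and for Lefty2 Stxbp2 (11.7), Itga9 (11.9) and Grik4 (14.9). None of the 15 is on the list of Nodal or of Fgf pathway genes described next.

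**Figure D3:**
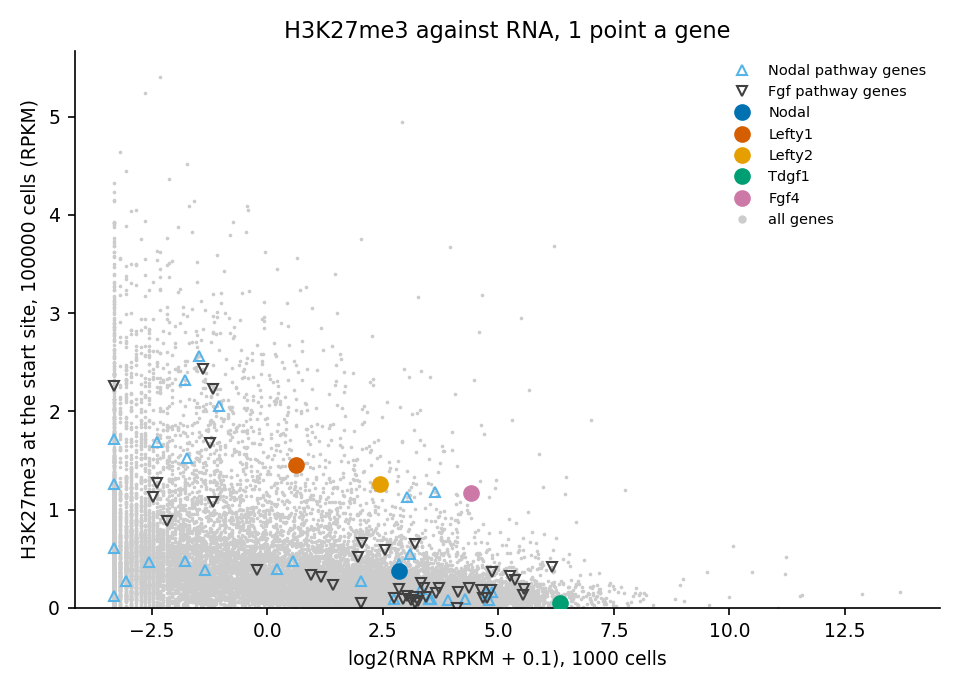
H3K27me3 at the start site at 100000 cells (RPKM, vertical axis) against log2(RNA RPKM + 0.1) at 1000 cells (horizontal axis, log scale), 1 point a gene, with all genes in grey, the pathway genes as triangles and the 5 members as filled circles. Lefty1, Lefty2 and Fgf4 lie above 1 RPKM of H3K27me3 at RNA levels of 1.43 to 21.06 RPKM, and Tdgf1 lies at the lower right.

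The members were next set beside the other genes of their pathways. Of 34 genes on the Nodal list, 11 reached 1 RPKM of H3K27me3 at 100000 cells, 12 reached 5 RPKM of H3K4me3 and 21 reached 1 RPKM of RNA; over all genes the shares were 9.55%, 21.4% and 50.2%. The median H3K27me3 level of the list was 0.425 RPKM, beside 0.28 RPKM over all genes. Among its 30 genes other than the members the counts were 9, 12 and 17. The genes with the most RNA after Tdgf1 were Tgif1, a co-repressor of Smad2 (29.04 RPKM), Smad2 itself (27.48) and Gdf3, a ligand related to Nodal (26.56). Their H3K27me3 at 100000 cells was 0.16, 0.08 and 0.15 RPKM, all below the median of all genes. The genes with the most H3K27me3 included transcription factors of the early embryo. Gsc, a homeobox gene of the organizer, had 2.56 RPKM of H3K27me3 and 0.26 RPKM of RNA, and Eomes, a T-box factor of mesendoderm, had 2.05 and 0.38. Inhba, which encodes an activin subunit, had 1.72 RPKM of H3K27me3, and Cfc1, the EGF-CFC relative of Tdgf1, had 1.26; RNA of both was listed at 0. RNA and H3K27me3 of at least 1 RPKM met in 4 of the 34 genes, beside 1.91% of all genes. They were Lefty1, Lefty2, Inhbb and Pcsk6, the last 2 of which are named after their values were seen. Another 7 had H3K27me3 and less RNA.

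In the Fgf pathway list of 44 genes, 8 reached 1 RPKM of H3K27me3, 25 reached 5 RPKM of H3K4me3 and 35 reached 1 RPKM of RNA, beside the same 9.55%, 21.4% and 50.2% of all genes. The median H3K27me3 level of the list was 0.215 RPKM. Without Fgf4 the counts were 7, 24 and 34 of 43. The genes with the most RNA act below the receptor. Gab1, an adaptor, had 71.45 RPKM of RNA and 0.42 RPKM of H3K27me3 at 100000 cells. Spred2, an inhibitor of the cascade, had 46.44 and 0.13, and Etv5, a transcription factor induced by Fgf signals, had 40.98 and 0.28. Several other Fgf ligand genes had more H3K27me3 or less RNA than Fgf4. Fgf15 had 2.43 RPKM of H3K27me3 and 0.28 RPKM of RNA, Fgf5, a marker of primed epiblast, had 2.26 with RNA listed at 0, Fgf2 had 1.68 and 0.32, and Fgf8 had 1.13 and 0.08. The receptor gene Fgfr3 had 2.23 RPKM of H3K27me3 and 0.34 RPKM of RNA. Fgf4 was the 1 gene of the 44 with at least 1 RPKM of RNA and of H3K27me3, a share near the 1.91% of all genes that had both. The other 7 genes with H3K27me3 had less RNA.

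H3K9me3 was compared with panH3 at 1000 cells, the 1 comparison with replicates on each side, in the 8 bins near the members. It was lower than panH3 in 6 bins and higher in 0 at an adjusted p under 0.05 (limma on log2(RPKM + 0.1), Benjamini-Hochberg over 93575 bins, two-sided). Over all bins tested, 24.7% were lower and 15.2% higher; with each library centred on its median the split was 19.8% lower and 21.7% higher, and the 6 and 0 of the members did not change. No bin was higher at an unadjusted p under 0.05, nor by voom on the recovered reads.

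The bin 17.9 kb downstream of Nodal (chr10:60906001-60908000), inside the translation regulator gene Eif4ebp2, had 0.03, 0.13 and 0.00 RPKM of H3K9me3 in libraries a, b and c, against 0.58 and 0.63 RPKM of panH3 in a and b. The groups did not overlap, and the log2 difference was -2.29 ± 0.30 (SE; limma adjusted p = 1.21e-06). The size depends on the constant added before the logarithm: with 1 RPKM it was -0.61, and with 0.01 RPKM -4.01. Over the 6 bins called lower it spanned -0.22 to -0.63 with 1 RPKM and -1.42 to -4.01 with 0.01 RPKM. The bin 1.2 kb upstream of Lefty2 (chr1:182820001-182822000) had 0.11, 0.16 and 0.09 RPKM of H3K9me3 against 0.81 and 0.65 RPKM of panH3, a log2 difference of -1.92 ± 0.26 (limma adjusted p = 1.47e-06). This bin is the nearest of the 8 to a start site, and all its H3K9me3 libraries were below both panH3 libraries. The 3 bins near Tdgf1 were alike. At 16.1 kb downstream (chr9:110824001-110826000) H3K9me3 was 0.14, 0.14 and 0.04 RPKM against 0.57 and 0.53 RPKM of panH3 (log2 difference -1.70 ± 0.28, limma adjusted p = 1.94e-05). At 7.3 kb upstream (chr9:110856001-110858000) it was 0.09, 0.04 and 0.07 RPKM against 0.49 and 0.44 RPKM (log2 difference -1.77 ± 0.26, limma adjusted p = 5.86e-06). This bin and the next lie in Lrrc2, a gene of a leucine-rich repeat protein. At 15.3 kb upstream (chr9:110864001-110866000) H3K9me3 was 0.11, 0.06 and 0.13 RPKM against 0.69 and 0.38 RPKM of panH3 (log2 difference -1.64 ± 0.28, limma adjusted p = 3.07e-05).

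The bin 6.8 kb downstream of Fgf4 (chr7:152058001-152060000) had 0.06, 0.09 and 0.26 RPKM of H3K9me3 against 0.38 and 0.27 RPKM of panH3. The groups came within 0.01 RPKM of each other without overlap, and the log2 difference of -0.92 ± 0.30 had a limma adjusted p of 0.0161. The call ended without H3K9me3 library b (adjusted p = 0.0742), without panH3 library a (0.206) and without the filter on bins at 0 (0.12). The remaining 2 bins lie near the antagonists and did not pass. The bin 5.2 kb upstream of Lefty1 (chr1:182858001-182860000) had 0.57, 0.99 and 0.81 RPKM of H3K9me3 against 0.71 and 0.87 RPKM of panH3, and the groups overlapped. Its log2 difference was -0.02 ± 0.20 with a 95% interval of -0.43 to 0.38 (limma adjusted p = 0.942). The bin 13.2 kb upstream of Lefty2 (chr1:182808001-182810000) had 0.66, 0.52 and 0.52 RPKM of H3K9me3 against 0.81 and 0.66 RPKM of panH3, and the groups met at 0.66 RPKM. Its log2 difference was -0.33 ± 0.19 with a 95% interval of -0.72 to 0.07 (limma adjusted p = 0.192).

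H3K9me3 was also followed from 1000 to 1000000 cells over its 6 libraries. In limma, 0 of the 8 bins had a slope per 10-fold more cells at an adjusted p under 0.05, beside 0.00107% of all bins. At an unadjusted p under 0.05, 3 of the 8 bins had a rising slope, those near Nodal, 1.2 kb upstream of Lefty2 and 7.3 kb upstream of Tdgf1, and none a falling one; over all bins 5.53% had a rising and 2% a falling slope at this limit. The bin 1.2 kb upstream of Lefty2 had 0.11, 0.16 and 0.09 RPKM at 1000 cells and 0.15, 0.22 and 0.43 RPKM at 10000, 100000 and 1000000 cells. Its slope was 0.39 ± 0.13 log2 units per 10-fold more cells (limma adjusted p = 0.388). The bin near Nodal had 0.03, 0.13 and 0.00 RPKM at 1000 cells and 0.00, 0.12 and 0.25 RPKM at the larger numbers, a slope of 0.40 ± 0.14 (limma adjusted p = 0.458). With voom weights on the recovered reads, chosen after seeing the data, 2 of the 8 bins passed with rising slopes, the bin near Nodal (adjusted p = 0.0353) and the bin 1.2 kb upstream of Lefty2 (adjusted p = 0.0299); 1.63% of all bins passed with a rising slope in that fit. The depth of these libraries was 13.4 to 45.5 M reads, with the most at 1000000 cells, and its part in the slopes was not tested.

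**Figure D4:**
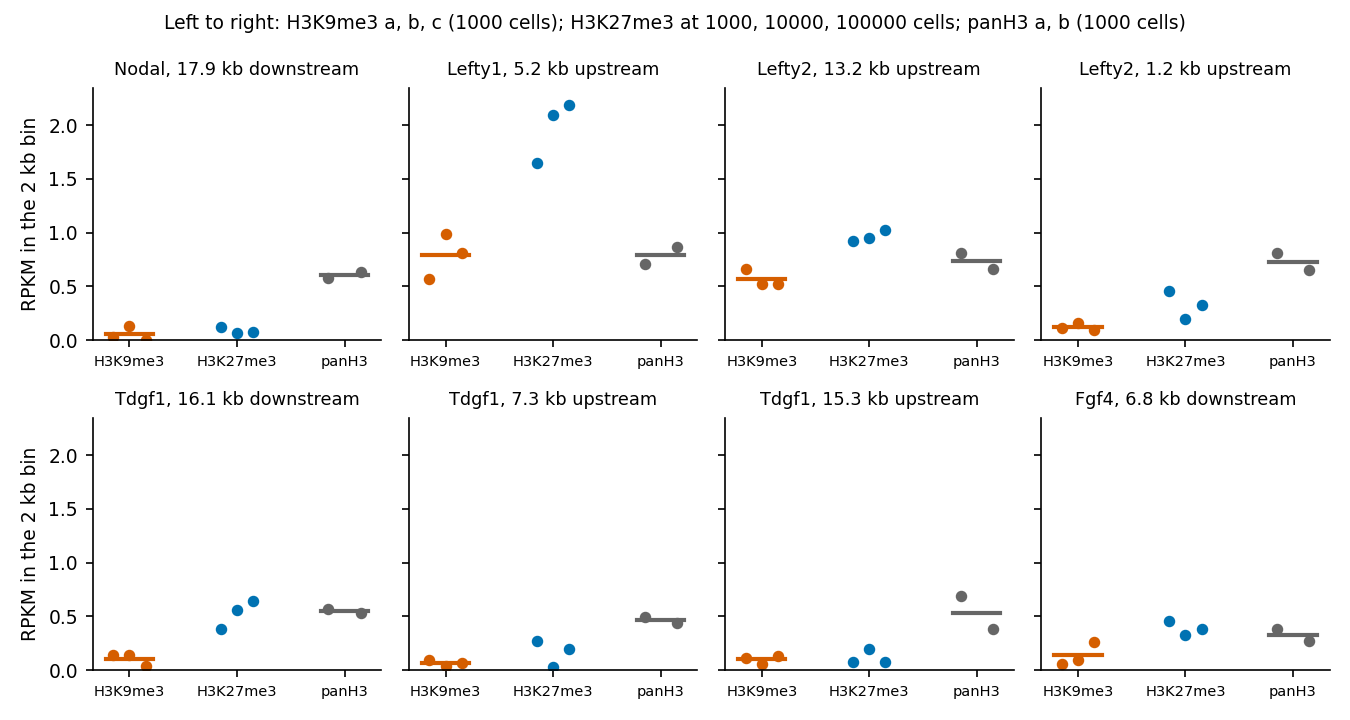
RPKM (vertical axis) in the 8 bins within 20 kb of the members, for H3K9me3 a, b and c at 1000 cells, H3K27me3 at 1000, 10000 and 100000 cells and panH3 a and b at 1000 cells (horizontal axis), with 1 point a library and lines at the means of H3K9me3 and panH3. Mean H3K9me3 lies below mean panH3 in 7 bins and equals it in the Lefty1 bin, and H3K27me3 exceeds 1.6 RPKM in the Lefty1 bin alone.

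H3K27me3 in the same bins was highest beside Lefty1. The bin 5.2 kb upstream of Lefty1 had 1.65, 2.09 and 2.19 RPKM of H3K27me3 at 1000, 10000 and 100000 cells from 43, 64 and 86 reads, against 0.71 and 0.87 RPKM of panH3. It stood at the 99.7th, 99.4th and 99.6th percentiles of all bins. The bin 13.2 kb upstream of Lefty2 had 0.92, 0.95 and 1.02 RPKM, at the 93.3rd to 95.8th percentiles, against 0.81 and 0.66 RPKM of panH3. Nearer to Lefty2 the level was lower: the bin 1.2 kb upstream had 0.46, 0.20 and 0.33 RPKM, although H3K27me3 around the start site itself reached 1.26 RPKM at 100000 cells. The bin near Nodal had 0.12, 0.07 and 0.08 RPKM, and the bins 7.3 and 15.3 kb upstream of Tdgf1 had at most 0.27 RPKM. The bin 16.1 kb downstream of Tdgf1 had 0.38, 0.56 and 0.64 RPKM, above Tdgf1's own start site at each cell number. Downstream of Fgf4 the levels were 0.46, 0.33 and 0.38 RPKM. At 1000 cells H3K27me3 exceeded both panH3 libraries in 3 of the 8 bins, those near Lefty1, Fgf4 and 13.2 kb upstream of Lefty2; over all bins the share was 36.8%, close to that of the members.

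Genes within 20 kb carried marks of their own. Fgf3, a neighbouring Fgf ligand gene 18.0 kb from Fgf4, had 1.31, 2.56 and 2.41 RPKM of H3K27me3 at its start site at 1000, 10000 and 100000 cells and 0.59 RPKM of RNA. Its H3K27me3 was higher than that of Fgf4 at each cell number and its RNA lower. Tmem63a, next to Lefty1, had 0.62, 2.07 and 1.77 RPKM of H3K27me3 and 0.95 RPKM of RNA. Eif4ebp2 beside Nodal and Lrrc2 beside Tdgf1 had 30.09 and 5.45 RPKM of RNA and at most 0.26 RPKM of H3K27me3.

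Bins just beyond 20 kb are given for their values alone. The bin 21.3 kb upstream of Fgf4, inside Fgf3, had 2.07, 3.56 and 3.05 RPKM of H3K27me3 at 1000, 10000 and 100000 cells, more than any of the 8 bins. The bins 24.7 kb upstream of Nodal, 21.5 kb downstream of Lefty1 and 25.2 kb upstream of Lefty2 averaged 0.123, 0.203 and 0.0967 RPKM of H3K9me3 at 1000 cells against 0.355, 0.650 and 0.810 RPKM of panH3. The bin 32.1 kb downstream of Tdgf1 went the other way, with 0.60, 0.57 and 0.70 RPKM of H3K9me3 against 0.23 and 0.20 RPKM of panH3.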

How the data were processed

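The authors deposited RPKM values per library, per the file headers: H3K9me3, H3K27me3 and panH3 in 2 kb bins, H3K4me3 in 1 kb start-site windows, and H3K27me3 within 1 kb of gene starts with RNA over exons. For panH3 the header names no unit; RPKM was inferred from the steps of its values. BWA, SAMtools and mm9 are named in the submitters' processing notes; versions and the handling of duplicates and multiply mapped reads were not given in the sources used here. Of the start-site table, 2 columns of another series were not used. The values in the gene table do not fall on whole reads, so reads behind them are approximate, from the depth of the bin table.

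Depth was recovered from the RPKM steps, to 2 decimals. At 1000 cells the 3 H3K9me3 libraries were set against the 2 panH3 libraries, and H3K9me3 was regressed on log10 of the cell number. Both fits used limma 3.58.1 in R 4.3.3 (robust, with trend) on log2(RPKM + 0.1) in bins above 0 in at least 1 library. They were two-sided and adjusted over all bins at 0.05. The fits were tried on simulated data, with changes placed only in bins averaging above 0.2 RPKM. In the slope fit 2 of the 8 member bins reached that mean, so the simulation does not cover the others. All else rests on 1 library a group and carries no p-value. A gene with several rows is given, for each mark and for RNA, by its row with the highest mean. H3K27me3 and RNA of such a gene can thus come from different rows, also in the shares of genes with both. Each member has 1 row in the gene table. Alternatives were another pseudocount, filter, scaling, distance, threshold, moderation, a replicate block and leaving out each library. Other steps ran in Python 3.11.15 with pandas 2.3.3, numpy 2.4.6, matplotlib 3.10.9 and scipy 1.17.1.

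The members and lists were chosen with earlier results of these data known. Named were the members, their bins and neighbours; from each pathway list the 4 genes with the highest RNA, the 4 with the highest H3K27me3 at 100000 cells and the 2 with the lowest RNA; and the 3 genes most like each member. A pair of genes outside the rule is marked as such. Some genes that this rule names are not reported here.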

Additional observations from a re-analysis of the deposited data

How the results depend on the processing

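H3K9me3 was lower than panH3 in 6 of the 8 bins as reported, in 5 or 6 under every other scaling, filter, pseudocount and moderation tried and in 5 to 6 when 1 library was left out; it was lower in 3 of the 4 bins within 10 kb and in 12 of the 17 within 50 kb. It was higher in 0 of the 8 bins under each of these settings and in 1 bin within 50 kb. With the a and b libraries of H3K9me3 and panH3 joined as a replicate block, 6 of 8 bins were lower, and over all bins 13498 were higher and 22529 lower; the differences between a and b in H3K9me3 and in panH3 correlated at -0.00955 over 93575 bins, so the letters were not taken as pairs. Without panH3 library a, 9759 bins in all were higher and 15564 lower, and without library b 9792 and 15521. The slope on cell number passed in 0 of the bins tested under the planned settings, which were all 8 except with a mean of at least 0.2 RPKM (2 bins tested), in 0 when any 1 library was left out, and in 2 with voom weights (1521 rising and 69 falling of all bins; the cause was not tested). With doubled thresholds (2 RPKM of H3K27me3 and 10 RPKM of H3K4me3), 3 genes of the Nodal list passed for H3K27me3 and 3 for H3K4me3. Of the Fgf list 3 and 11 passed, beside 2.65% and 3.74% of all genes. No member was among them: Lefty1, Lefty2 and Fgf4 no longer passed for H3K27me3, nor Fgf4 for H3K4me3. The difference in H3K27me3 of Lefty1 between 1000 and 100000 cells turned from 0.064 to -0.074 log2 units when divided by the median over all genes, and that of Fgf4 from -0.99 to -0.49 with 1 RPKM added. Depth limits H3K27me3 at Nodal and Tdgf1 and H3K4me3 at 5000 and 10000 cells.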
